A study of Arabidopsis thaliana with 12 samples.

Results

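The genes described here form a wave that was highest on day 6 of a 10-day culture in which suspension cells of Arabidopsis thaliana were induced to become tracheary elements. They were chosen by their measured signals. Signals were raised to 20, put on the log2 scale and averaged over the 2 arrays of each day. A probe set of a single gene, named in the platform annotation only by its AGI locus (the systematic name for a position on a chromosome), was taken where day 6 lay at least 1.5 log2 units above days 0 and 2, above day 4 and at least 0.8 above day 10, with both day 6 signals at 60 or more. The rule left out 14 loci by name, among them peroxidases, kinases and wall enzymes. It gave 95 genes on 95 probe sets, of 11933 probe sets with such a locus and 22746 probe sets in all. Since days 0, 2, 4, 6 and 10 chose the genes, the height of day 6 over those days is a description here, with no test. The day 8 arrays had no part in the choice.

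Tracheary elements are the cells that become the water pipes of xylem. A differentiating cell sorts its cortical microtubules into bands, lays cellulose and xylan along them, adds lignin, and then digests its own contents with proteases, nucleases and lipases held in the vacuole, which leaves a hollow tube. Brassinosteroids are plant steroid hormones that promote the late steps of this course, and cultured cells given them can be followed through it more or less together.

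The arrays were Affymetrix ATH1, which read a gene by a set of short probes and summarise them as 1 signal on a linear scale, here made with MAS5. Cells of accession Col-0 were harvested on days 0, 2, 4, 6, 8 and 10, with 2 arrays a day and 12 in all. For days 2 to 10, 7.5 ml of a culture 7 days past its subculture were put into 42.5 ml of new medium holding MS salts, 3% sucrose, brassinolide (a brassinosteroid) at 1 uM and boric acid at 10 mM. Day 0 cells were untreated. The maintenance medium, also listed for every sample, has MS salts, 3% sucrose and the auxin 2,4-D at 1 ug/ml. The labels give an average daily temperature of 22 C on days 0, 4 and 8 and of 27 C on days 2, 6 and 10, so that on a given day time and temperature cannot be told apart. All groups share the same kind of suspension cells, and no untreated culture of a later day is among the samples used here. Whether the arrays of 1 day stand for different cultures is not stated in the labels, so p-values cover the spread between arrays alone, and that spread may be technical. The whole culture was extracted, and more cells of a type and more RNA per cell cannot be told apart.

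The arrays were alike in overall level. Their median signals were between 33.2 and 40.7. Across probe sets, the r of the log2 signals was 0.962 to 0.966 within a day and 0.850 to 0.967 between days. The 40th percentile of an array lay between 17.2 and 22.1, so a signal under 20 is close to background and is given here as a bound. A probe set's signal depends on its probes as well as on its transcript, so levels are compared between days and not between genes. Where an array lay below 20, a fold is written as "at least", from signals raised to 20. Where no array of the days compared lay below 20, a gene's log2 change and its standard error (SE) come from limma's linear model. Median log2 changes over sets of genes come from that model's fit of signals not raised to 20, unless stated.

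Many genes of the wave were close to background before day 4. On day 0, 52 of the 95 genes had both signals below 20, and on day 2, 53 had. Both days were below 20 for 43 genes, and 25 genes had no array below 20. The median signal of the 95, raised to 20, was 20 on days 0 and 2, 85.6 on day 4, 255 on day 6, 142 on day 8 and 83.3 on day 10, while the median of all 15103 probe sets tested lay between 82.6 and 94.1 throughout. Without raising, the median signal on day 0 was 15.9 for the 95 and 22.8 for all 11933 probe sets named only by an AGI locus. Together the 95 made up 0.0891% and 0.0819% of the summed signal at day 0, 0.0995% and 0.101% at day 2, 0.491% and 0.617% at day 4, 1.29% and 1.15% at day 6, 0.709% and 0.737% at day 8, and 0.464% and 0.427% at day 10. Days 0, 2 and 10 are low by the choice of the genes.

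Relative to its own day 6 level, the median gene stood at 38.5% on day 4, with a range of 4.43% to 97.6%. On day 8 it stood at 58.1% (24.1% to 127%) and on day 10 at 34.0% (11.3% to 57.4%). These shares are from signals raised to 20, so a share is an upper bound where an array of the day lies below 20, as in 10 genes on day 4, 1 on day 8 and 7 on day 10. On day 4, 35 genes had reached at least 50% of day 6. On that scale 4 read under 10%, 3 of them with an array below 20, and the other 56 lay in between. Genes that were below 20 on day 4 and not bright on day 6 could not read under 10%. Of the 95, 94 had a day 8 level between those of days 10 and 6. In 93 both day 8 arrays lay below both day 6 arrays, a count that the choice of day 6 as the highest day favours. The day 8 level was above day 4 in 66 genes and below it in 29. On day 10, 10 genes held at least 50% of day 6 and 18 held less than 25%. All 95 were lower on day 10 than on day 8. The limit on day 10 favours this count, and also that of the 94 genes with day 8 between days 10 and 6.

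**Figure D1:**
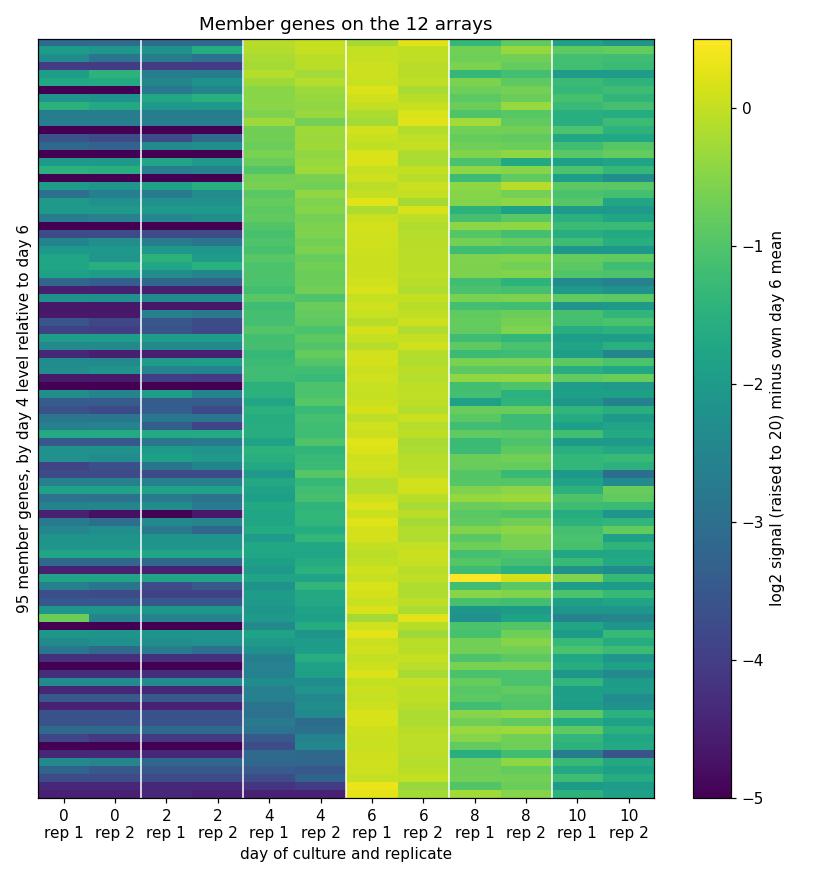
Signals of the 95 genes on the 12 arrays, as log2 of the signal raised to 20 minus the gene's own day 6 mean; rows run from the highest to the lowest day 4 level relative to day 6, and columns are the 2 arrays of each day. Colours are held between -5 and 0.5. Days 0 and 2 are dark for nearly every gene, day 4 ranges from near the day 6 level at the top to dark at the bottom, and days 8 and 10 step down from day 6.

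Comparisons that the rule did not use were tested with limma over all 15103 probe sets, with Benjamini-Hochberg adjustment and calls at an adjusted p under 0.05. They still share arrays with the rule: days 0, 2 and 10 are low by choice and day 4 is held below day 6. The counts below describe how the rise and the decline were spread over the days. Day 2 against day 0 was a mixed step. It called 23 genes higher and 20 lower, with 35.3% and 26.1% of all probe sets called in these directions, and the median log2 change was 0.07 for the 95 and 0.07 for all. Of the 43 genes below 20 on both days, 17 were among the calls, and there the direction is that of signals near background. Of the other 52, 13 were called higher and 13 lower.

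For most genes a rise was already called between days 2 and 4. That it was only a part of the rise to day 6 follows from the rule, which held day 4 below day 6. On day 4, 60 of the 95 stood below 50% of their day 6 level. On signals raised as for the rule, the median log2 step was 1.52 from day 2 to day 4 and 1.38 from day 4 to day 6. Raising can understate a step where the earlier day has an array below 20, as in 62 genes on day 2 and 10 on day 4. These medians are therefore not directly comparable. Day 4 against day 2 called 86 of the 95 higher and 0 lower, with 22.3% and 22.5% of all probe sets called higher and lower, and the median log2 change was 1.94 against 0.00 for all. Day 4 against day 0 called 87 higher and 1 lower (35.8% and 25.8% of all), with a median of 2.15 against 0.10. The gene called lower was the class III peroxidase AT1G71695. On day 8 the wave was still far above its start: 93 were called higher than on day 0 and 0 lower (36.2% and 27.3% of all), with a median of 2.98 against 0.09. On day 10, 90 were called higher than on day 0 and 0 lower (36.4% and 27.6% of all), with a median of 2.27 against 0.08. At an unadjusted limma p under 0.05, too, 0 were lower on day 4 than on day 2 and on days 8 and 10 than on day 0.

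Day 8 against day 4 compares the flanks of day 6, both at 22 C. The rule held day 4 below day 6 and set no limit on day 8. Its limit on day 10 can still lower day 8 in the genes kept, so the choice can act on both flanks. The limit on day 4 removed 17 probe sets that met the other limits, and that on day 10 removed 74. The comparison called 38 genes higher and 7 lower, and 50 did not pass. Of all probe sets, 12.2% and 10.8% were called higher and lower. The median log2 change was 0.36, against 0.02 for all. Without replicate 2 of day 8 this came to 25 higher and 1 lower, the nucleotide sugar transporter AT5G55950, with 6.77% and 6.01% of all called. Day 10 against day 8 called 0 genes higher and 2 lower, against 0.0199% and 0.053% of all probe sets. At an unadjusted limma p under 0.05 it had 0 higher and 75 lower, with 3.39% and 5.19% of all probe sets. The median log2 change of the 95 was -0.71 there, against 0.01 for all. These 2 calls depended on the processing, and alternatives gave between 0 and 35.

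**Figure D2:**
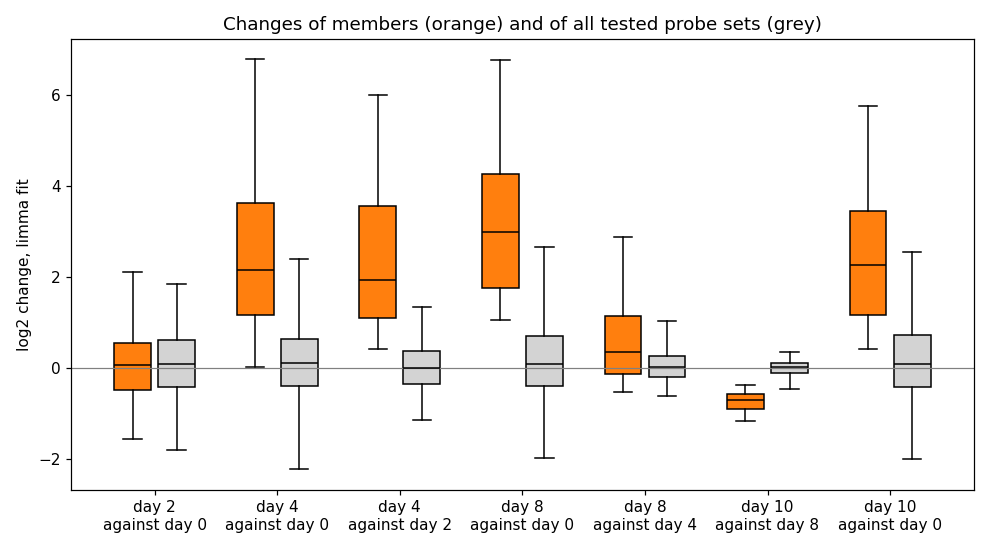
Log2 changes from limma's fit for 7 comparisons of days, for the 95 genes (orange) and for all 15103 tested probe sets (grey); boxes span the quartiles with the median as a line, and whiskers run from the 5th to the 95th percentile. The 95 genes sit with all probe sets on day 2 against day 0, far above them on day 4 and on day 8 against day 0, and below them on day 10 against day 8.

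For 9 genes day 4 against day 2 did not pass the test, which does not show that they did not rise. They were the galactosyltransferase AT1G05170, the NADPH oxidase AT1G19230, the armadillo repeat protein AT1G59850, the lipase AT3G14360, the DUF677 protein AT3G49070, the protein kinase AT4G10390, the xylanase AT4G33810, the remorin AT5G23750 and AT3G62730, which has no family named here. AT1G19230 had 28.2 and 31.1 at day 4, against 12.0 and 14.7 at day 2. In all 9 the level was below 50% of day 6 on day 4. At the other end, the amino acid transporter AT1G47670 and the ROP GTPase activating protein AT3G11490 already stood on day 4 at 97.6% and 96.0% of day 6.

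Calls by role are to be read beside those of the whole wave, and no difference between roles was tested. For day 4 against day 2, 90.5% of the 95 were called higher, against 22.3% of all probe sets. For day 4 against day 0 it was 91.6% against 35.8%, and for day 8 against day 0 97.9% against 36.2%. For day 8 against day 4 it was 40% against 12.2%. The part of the wave that acts on the cytoskeleton and on the pattern of the wall held 9 genes. All 9 were called higher on day 4 than on day 2 and on day 4 than on day 0. The group's median was 36.1% of day 6 on day 4, 48.5% on day 8 and 27.8% on day 10. ROP GTPase activating proteins switch off ROP GTPases, the small G proteins that mark out where a secondary wall is not laid. AT3G11490 had 115 and 107 at day 0, 100.5 and 151 at day 2 and 412 and 462 at day 4. It then had 461 and 448 at day 6, 285 and 351 at day 8 and 250.4 and 263 at day 10. It was well above 20 from the start, and its day 4 and day 6 arrays overlapped. AT1G08340, of the same family, had 19.5 and 17.9 at day 0, 13.4 and 9.55 at day 2 and 111 and 161 at day 4. It reached 486 and 424 at day 6, 197 and 161 at day 8 and 100.2 and 91.2 at day 10. Here day 4 was 29.4% of day 6, and the arrays of these days did not overlap.

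Kinesins are motors that walk on microtubules. AT2G47500, a kinesin with a calponin homology domain, stood on day 4 at 56.2% of day 6 and AT4G38950 at 73.1%. AT4G38950 was 1 of the 7 genes called lower on day 8 than on day 4, with a log2 change of -0.52 ± 0.17 (SE, adjusted p = 0.0484). That call was lost without any 1 array of days 2, 4, 8 or 10, with adjusted p between 0.0542 and 0.236. The DUF662 proteins AT3G52900 and AT2G27740 are coiled-coil proteins of 1 family. AT3G52900 had 0.767 and 0.817 at day 0, 0.893 and 0.511 at day 2 and 61.2 and 126 at day 4. It reached 375 and 379 at day 6, 182 and 204 at day 8 and 113 and 86.3 at day 10. Its relative AT2G27740 had 65.0 and 139 at day 4, 279 and 259.7 at day 6 and 138 and 111 at day 8. Both were below 2 on all arrays of days 0 and 2, where the signal is background. Day 8 against day 4 was called higher for AT3G52900 and was not called for AT2G27740, and the call of AT3G52900 was lost when replicate 1 of day 4 was left out, and when either array of day 6 or of day 8 was, with adjusted p of up to 0.261. Day 4 was at least 4.39-fold and at least 4.76-fold above day 2.

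Others of this group were not dim at the start. AT3G01810, which carries an EEIG1/EHBP1 domain, had 47.3 and 49.5 at day 0, 28.5 and 16.4 at day 2, 95.8 and 126 at day 4 and 308 and 267 at day 6. Day 2 was at least 2.03-fold lower than day 0 (limma, adjusted p = 0.000701), among the 3 largest called falls of that step. The coiled-coil protein AT1G63300, related to it, dipped in the same way, with 44.6 and 37.4 at day 0, 20.2 and 24.7 at day 2 and 59.1 and 104 at day 4, and the log2 change on day 2 was -0.87 ± 0.23 (SE, adjusted p = 0.00694), a call lost without replicate 1 of day 2 (adjusted p = 0.0526). The filament-like protein AT3G05270 moved the other way, with 45.1 and 57.2 at day 2, against 22.1 and 26.0 at day 0. Its log2 change was 1.08 ± 0.16 (SE, adjusted p = 0.000135), among the 3 largest called rises of that step.

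The group set under wall polysaccharides held 13 genes, for enzymes, transporters and an inhibitor that act on polysaccharides or other sugar-bearing molecules. Not all are wall enzymes: the peptide N-glycanase AT3G14920 and the UDP-glycosyltransferase AT3G46720 are counted among them. Of these, 11 were called higher on day 4 than on day 2 and 12 higher on day 8 than on day 0. Their median level was 52.6% of day 6 on day 4, 60.9% on day 8 and 37.9% on day 10. Several act on pectin, the gel-forming polysaccharide of the primary wall. The polygalacturonase AT1G23460, of a family that cuts the pectin backbone, had 16.3 and 18.4 at day 0, 31.2 and 22.6 at day 2 and 711 and 950.3 at day 4. It reached 1570.3 and 1284 at day 6, 1030.1 and 1050.0 at day 8 and 599.9 and 594 at day 10. All arrays from day 4 on lay far above those of days 0 and 2. Day 6 was at least 71.0-fold above day 0, and day 4 at least 41.1-fold (limma, adjusted p = 3.39e-10). Its probe set is shared between transcripts, per the probe set's name, the single such case among the 95.

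The other polygalacturonase, AT1G19170, began at 38.8 and 40.3 and was 137 and 158 at day 4 and 255 and 237 at day 6. The pectin methylesterase AT3G47400, which strips methyl groups from pectin, had 37.8 and 60.02 at day 2, 314 and 399 at day 4 and 509 and 485 at day 6. AT5G38610, of the family that inhibits invertases or pectin methylesterases, was at least 12.1-fold higher on day 4 than on day 2 (limma, adjusted p = 4.89e-08). The rhamnogalacturonate lyase AT4G24430, which cuts branched pectin, came later. It had 7.66 and 5.84 at day 0, 10.3 and 8.52 at day 2 and 18.1 and 28.2 at day 4. It then had 267 and 263 at day 6, 168 and 167 at day 8 and 115 and 87.2 at day 10. Day 4 was at most 8.96% of day 6, and day 8 was at least 7.03-fold above day 4 (limma, adjusted p = 1.35e-05).

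The xylanase AT4G33810, of a glycosyl hydrolase family that cuts xylan, was the gene whose day 8 mean lay above day 6. It had 15.5 and 12.8 at day 0, 10.6 and 7.18 at day 2 and 11.2 and 10.7 at day 4. Later it had 69.5 and 67.8 at day 6, 100.2 and 76.1 at day 8 and 46.8 and 27.6 at day 10. All arrays of days 0, 2 and 4 were below 20, and both day 8 arrays were above both day 6 arrays, at 127% of the day 6 level. Day 8 was at least 4.37-fold above day 4 (limma, adjusted p = 4.63e-05). Nucleotide sugar transporters carry the activated sugars used for wall synthesis into the Golgi. AT5G55950 of this family had 34.0 and 47.3 at day 0, 11.6 and 16.0 at day 2 and 119 and 108 at day 4. Later it had 137 and 122 at day 6, 51.4 and 58.8 at day 8 and 32.5 and 32.8 at day 10. Day 2 was at least 2.01-fold lower than day 0 (limma, adjusted p = 3.49e-05). The log2 change for day 8 against day 4 was -1.04 ± 0.20 (SE, adjusted p = 0.00331), the largest called fall of that comparison, and day 8 against day 0 was not called at 0.45 ± 0.20 (SE). AT1G06470, of the same family, had 322 and 410.3 at day 4, 693 and 608 at day 6 and 413 and 378 at day 8, and its log2 change for day 8 against day 4 was 0.12 ± 0.15 (SE, adjusted p = 0.607), which did not pass.

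The rest of this group were glycosyltransferases and a peptide N-glycanase. AT1G05170, a galactosyltransferase, was the gene just inside the limit of 60 for day 6. It had 11.1 and 8.94 at day 0, 19.3 and 16.6 at day 2 and 21.1 and 27.2 at day 4. It then had 64.9 and 60.05 at day 6, 34.8 and 33.2 at day 8 and 28.0 and 18.8 at day 10. The peptide N-glycanase AT3G14920, just inside the limit for day 10, had 55.6 and 43.4 at day 0, 68.9 and 47.8 at day 2 and 99.7 and 109.6 at day 4. After that it had 197 and 181 at day 6, 127 and 129 at day 8 and 109 and 106 at day 10, and no array lay below 20. The Core-2/I-branching enzyme AT5G14550 had 102 and 99.4 at day 0, 568 and 460.0 at day 6 and 276 and 246 at day 10, and the O-fucosyltransferase AT1G29200 was below 20 on days 0 and 2 and had 139 and 148 at day 6. The UDP-glycosyltransferase AT3G46720 had 62.5 and 73.5 at day 4, 195 and 173 at day 6 and 111 and 115 at day 8, with a log2 change of 0.73 ± 0.13 (SE, adjusted p = 0.00212) for day 8 against day 4.

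Proteins of the wall surface and enzymes linked to lignin numbered 12, and 11 of them were called higher on day 4 than on day 2 and 11 higher on day 8 than on day 0. At the median they stood at 33.9% of day 6 on day 4, 49.7% on day 8 and 27.3% on day 10. The acyltransferase AT5G07080, of the HXXXD family that joins acyl groups to phenolics and other acceptors, had the largest rise on day 6 over the mean log2 of days 0 and 2, on signals raised to 20. It had 18.4 and 11.0 at day 0, 15.1 and 11.7 at day 2 and 125 and 293 at day 4. It reached 1668 and 1559.7 at day 6, 913 and 981 at day 8 and 595 and 516 at day 10. The replicates of day 4 lay far apart, yet both were well below day 6 and well above day 2. Day 6 was at least 80.7-fold above day 2, and day 8 at least 47.3-fold above day 0 (limma, adjusted p = 2.91e-08). The log2 change for day 8 against day 4 was 2.31 ± 0.33 (SE, adjusted p = 0.000625). Another acyltransferase, AT3G62160, had 42.4 and 55.9 at day 4, 118 and 115 at day 6 and 52.6 and 41.6 at day 8, and its change for day 8 against day 4 was -0.06 ± 0.25 (SE, adjusted p = 0.906), which did not pass.

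AT1G75280, of the isoflavone reductase-like family of phenylpropanoid enzymes, was early. It had 12.1 and 11.0 at day 0, 299.6 and 361 at day 2 and 1480.2 and 1674 at day 4. It reached 2349 and 1797 at day 6, 1244 and 1309 at day 8 and 817 and 889 at day 10. All arrays from day 2 on lay far above those of day 0, and it was at least 16.5-fold higher by day 2 (limma, adjusted p = 3.42e-10). No other gene of the wave had so large a called rise on that day. The cupredoxin AT3G27200, of a family of small copper proteins of the cell surface, was different. It had 13.1 and 1.84 at day 0, 1.90 and 5.34 at day 2 and 581 and 776 at day 4. Afterwards it had 1028 and 859 at day 6, 594 and 592 at day 8 and 449 and 343 at day 10. It was at background on days 0 and 2 and at least 33.6-fold higher on day 4 than on day 2 (limma, adjusted p = 6.79e-06).

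The DUF1218 membrane proteins AT4G27435 and AT1G31720 are members of 1 family. AT4G27435 had 15.9 and 4.87 at day 0, 17.3 and 11.4 at day 2 and 360.2 and 488 at day 4. It reached 1032 and 968 at day 6, 443 and 496 at day 8 and 261 and 247 at day 10. AT1G31720 was slower: its day 4 level was 16.7% of day 6, with 60.7 and 92.9 at day 4 and 477 and 424 at day 6, while that of AT4G27435 was 41.9%. From day 8 on their shares were alike, at 46.9% and 46.9% on day 8 and at 23.6% for AT1G31720 and 25.4% for AT4G27435 on day 10. The hydroxyproline-rich glycoprotein AT1G48280 had 27.4 and 22.9 at day 0, 19.3 and 25.4 at day 2 and 184 and 244 at day 4. It reached 649 and 596 at day 6, 332 and 313 at day 8 and 207 and 141 at day 10. The GPI-anchored glycoprotein AT3G06035 was at least 12.8-fold higher on day 4 than on day 2 (limma, adjusted p = 6.96e-09).

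Class III peroxidases oxidise lignin monomers with hydrogen peroxide. AT5G15180 had 64.1 and 106 at day 4, 450.0 and 331 at day 6 and 183 and 185 at day 8, and was below 6 on days 0 and 2. AT1G71695 dipped first. It had 34.3 and 31.9 at day 0, 3.74 and 7.97 at day 2 and 9.11 and 12.9 at day 4. It then had 195 and 167 at day 6, 111 and 133 at day 8 and 73.2 and 56.4 at day 10. Both arrays of days 2 and 4 lay below both of day 0, and both of day 6 lay above them. Day 8 was at least 6.05-fold above day 4 (limma, adjusted p = 3.17e-05), and day 4 was at least 1.65-fold lower than day 0 (limma, adjusted p = 0.000816). NADPH oxidases make superoxide outside the cell. AT1G19230 of this family had 69.8 and 12.4 at day 0, 12.0 and 14.7 at day 2 and 28.2 and 31.1 at day 4. Later it had 98.0 and 138 at day 6, 24.9 and 32.5 at day 8 and 8.99 and 20.5 at day 10. Its day 0 arrays disagreed, at 69.8 and 12.4, and none of the 7 comparisons called it.

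**Figure D3:**
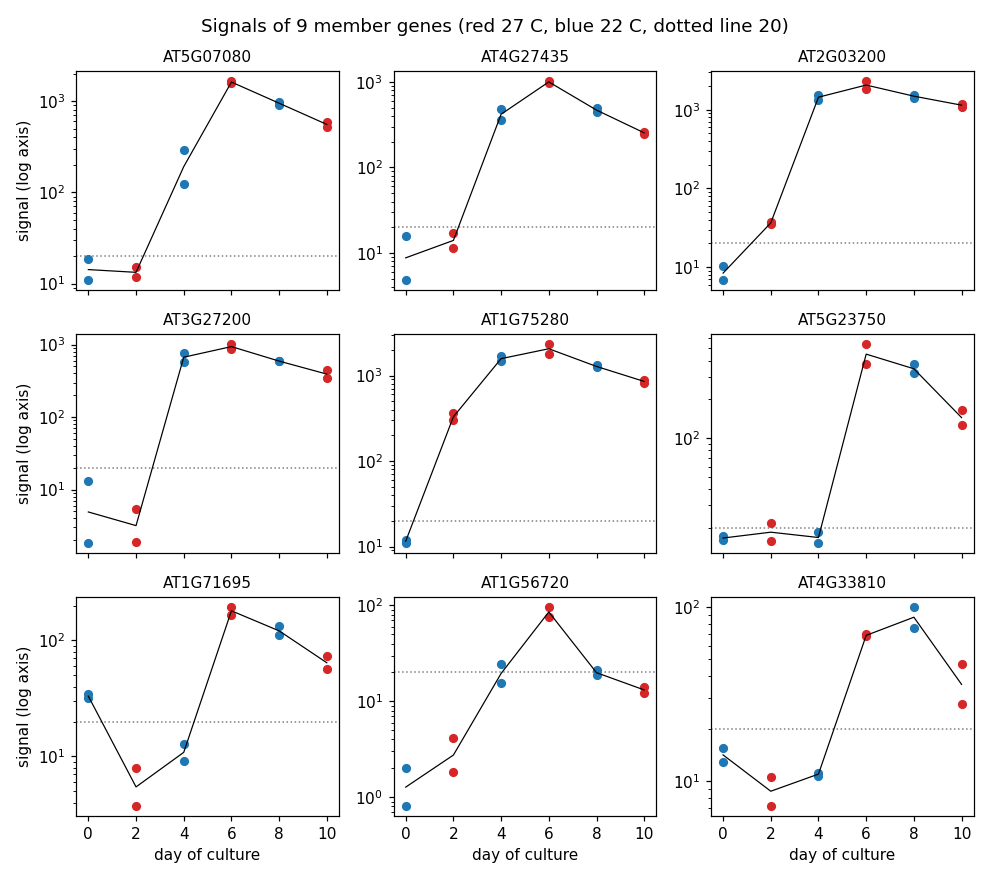
Signals of 9 genes of the wave on the 12 arrays (log axis); red points are the days at 27 C, blue points those at 22 C, the line joins the geometric means of the days, and the dotted line marks 20. AT1G75280 is up by day 2, AT2G03200 and AT3G27200 by day 4, AT5G23750 stays near 20 up to day 4, AT1G71695 dips on days 2 and 4, AT1G56720 is back near 20 on day 8, and AT4G33810 is higher on day 8 than on day 6.

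Proteases and other enzymes of breakdown numbered 10. Of these 9 were called higher on day 4 than on day 2, and all 10 higher on day 8 than on day 0. Their median level was 48.3% of day 6 on day 4, 66.4% on day 8 and 40.4% on day 10. The aspartic protease AT2G03200 had the largest fold between days 4 and 0, on signals raised to 20, after AT1G75280. It had 10.2 and 6.89 at day 0, 35.7 and 37.2 at day 2 and 1347 and 1543 at day 4. It reached 2334 and 1812 at day 6, 1420.2 and 1553 at day 8 and 1098 and 1187 at day 10. Day 4 was at least 72.1-fold above day 0 (limma, adjusted p = 6.62e-11), and the log2 change for day 4 against day 2 was 5.31 ± 0.17 (SE, adjusted p = 3.27e-09). AT2G39710, another aspartic protease, was still high on day 8. It had 8.53 and 5.78 at day 0, 22.9 and 19.6 at day 2 and 40.7 and 69.6 at day 4. It then had 161 and 143 at day 6, 117 and 122 at day 8 and 73.7 and 84.6 at day 10, which put day 8 at 78.7% and day 10 at 52.0% of day 6, with the day 8 arrays still below both day 6 arrays.

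The cathepsin B-like cysteine protease AT1G02300 had 34.2 and 33.9 at day 2, 94.3 and 88.2 at day 4, 180.2 and 177 at day 6 and 117 and 119 at day 8. Its replicates were close, and its log2 change for day 8 against day 4 was 0.37 ± 0.10 (SE, adjusted p = 0.0224), a call lost without any 1 array of days 4 or 8 (adjusted p between 0.0553 and 0.12). The subtilase AT5G45650, a serine protease, had 34.1 and 41.6 at day 4, 77.4 and 76.3 at day 6 and 33.4 and 29.9 at day 8. The serine carboxypeptidase AT5G22860 was at least 4.44-fold higher on day 4 than on day 2 (limma, adjusted p = 2.52e-07). The proteins AT5G18460 and AT1G70550 share the DUF239 domain of the neprosin family. AT1G70550, the gene just inside the limit for day 0, had 75.2 and 72.3 at day 0, 33.8 and 36.5 at day 2 and 108 and 174 at day 4. It then had 214 and 209.9 at day 6, 157 and 149 at day 8 and 102 and 84.1 at day 10. Its day 2 dip was a log2 change of -1.07 ± 0.18 (SE, adjusted p = 0.000356), and AT5G18460 was also lower on day 2, with 1.82 and 6.36 at day 2 and 21.8 and 13.1 at day 0, where only 1 array lay above 20.

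The triacylglycerol lipase AT3G14360 had similar signals on days 0, 2 and 4. It had 46.9 and 51.0 at day 0, 49.1 and 52.3 at day 2 and 58.6 and 62.6 at day 4. On day 6 it had 253 and 232, then 153 and 171 at day 8 and 97.7 and 80.0 at day 10. Its log2 change was 1.42 ± 0.13 (SE, adjusted p = 3.13e-05) for day 8 against day 4. It was 1 of the 2 genes called lower on day 10 than on day 8, at -0.87 ± 0.13 (SE, adjusted p = 0.045). That call was lost without any 1 array of days 6, 8 or 10, with adjusted p between 0.0608 and 0.301. AT4G33150, the bifunctional enzyme that starts the breakdown of lysine, had 132 and 137 at day 0, 240.3 and 282 at day 4, 879 and 661 at day 6 and 449.6 and 474 at day 8. Palmitoyl protein thioesterases remove fatty acids from proteins in the lysosome or vacuole, and AT4G17483 of this family had 51.3 and 51.3 at day 4, 122 and 111 at day 6 and 62.8 and 63.1 at day 8.

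Genes for parts of ubiquitin ligases, which tag proteins for the proteasome, numbered 8, and all 8 were called higher on day 4 than on day 2 and on day 8 than on day 0. For day 4 against day 2, the call of AT1G72220 was lost in 9 and that of AT1G74770 in 10 of the 12 fits with 1 array left out, with adjusted p of up to 0.341 and 0.137. The median stood at 36.4% of day 6 on day 4, 55.0% on day 8 and 31.4% on day 10. The RING-H2 proteins AT1G72200, AT1G72220 and AT5G17600 belong to the ATL family. AT1G72200 was ahead of the other two, with 6.87 and 7.94 at day 0, 31.3 and 33.3 at day 2 and 63.6 and 111 at day 4, and reached 260.4 and 191 at day 6. AT1G72220 had 13.1 and 3.17 at day 2, 22.5 and 34.9 at day 4 and 99.5 and 80.3 at day 6, and AT5G17600 had 38.0 and 48.0 at day 4 and 111 and 131 at day 6. AT1G72200 and AT1G72220 lie near each other on chromosome 1, with 1 protein-coding gene between them in RefSeq's TAIR10.1 annotation. The BTB/POZ protein AT3G56230, of a family that links targets to a cullin ligase, rose late. Its level was 13.6% of day 6 on day 4, with 36.7 and 29.1 at day 4, 272 and 214 at day 6 and 149.6 and 134 at day 8, and the log2 change for day 8 against day 4 was 2.12 ± 0.20 (SE, adjusted p = 5.08e-05).

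The other RING proteins differed in where they began. AT5G08750 had 54.9 and 55.9 at day 0, 94.0 and 96.7 at day 4 and 289 and 224 at day 6, with no array below 20. AT1G32740 was below 6 on days 0 and 2 and had 87.8 and 79.4 at day 6. AT5G55970 had 130.1 and 156 at day 4, 270.3 and 303 at day 6 and 164 and 183 at day 8. AT1G74770, with zinc finger and hemerythrin domains, had 26.7 and 26.5 at day 4, 87.1 and 87.3 at day 6 and 53.5 and 56.8 at day 8. Another probe set of this gene read at most 8.7 on every array, so it was dim throughout and shows no course.

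Kinases, regulators and scaffold proteins numbered 11. Of these 8 were called higher on day 4 than on day 2, and 6 were called higher on day 8 than on day 4. Median levels were 29.7% of day 6 on day 4, 66.9% on day 8 and 36.5% on day 10. Remorins are proteins of membrane microdomains, and AT5G23750 of this family was late. It had 16.0 and 17.2 at day 0, 21.8 and 15.6 at day 2 and 18.5 and 15.2 at day 4. It then had 544 and 375 at day 6, 376 and 321 at day 8 and 166 and 126 at day 10. Up to day 4 its signals stayed near 20, with 1 array above it, and day 4 was at most 4.43% of day 6, the lowest of the 95 on signals raised to 20. Day 8 was at least 17.36-fold above day 4 (limma, adjusted p = 8.21e-07), the largest called rise of that comparison.

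The protein kinase AT1G56720 was brief. It had 2.00 and 0.809 at day 0, 1.83 and 4.13 at day 2 and 15.6 and 24.4 at day 4. It then had 96.7 and 75.7 at day 6, 18.7 and 21.2 at day 8 and 14.2 and 12.1 at day 10. By day 8 it was at most 24.1% of day 6, within the range of its day 4 arrays and the lowest day 8 share of the 95 on signals raised to 20. The leucine-rich repeat receptor-like kinase AT3G03770 had a similar course. It had 1.97 and 2.70 at day 0, 1.64 and 1.61 at day 2 and 61.9 and 109 at day 4. It then had 218 and 203 at day 6, 58.1 and 78.1 at day 8 and 49.4 and 35.2 at day 10. Another receptor-like kinase, AT1G63430, was broader, at 63.3% of day 6 on day 4 and 66.9% on day 8, and had 48.7 and 62.4 at day 0 and 386 and 386 at day 6. The NDR-type kinase AT1G03920 had 48.5 and 58.1 at day 4, 177 and 181 at day 6 and 92.2 and 81.8 at day 8. The kinase AT4G10390, below 20 on days 0 and 2, had 18.5 and 31.1 at day 4, 66.0 and 76.3 at day 6 and 47.7 and 51.5 at day 8.

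The armadillo repeat proteins AT5G14510 and AT1G59850 took different courses. AT5G14510 had 6.61 and 1.68 at day 0, 2.06 and 4.48 at day 2 and 418 and 438 at day 4. It reached 707 and 626 at day 6, 283 and 368 at day 8 and 176 and 135 at day 10. It was at least 21.4-fold higher on day 4 than on day 2 (limma, adjusted p = 1.17e-06). AT1G59850 had 1.77 and 1.495 at day 0, 12.7 and 10.4 at day 2 and 10.5 and 8.72 at day 4. It then had 98.9 and 100.2 at day 6, 57.0 and 46.8 at day 8 and 38.2 and 25.6 at day 10. All its arrays up to day 4 were below 20, and day 8 was at least 2.58-fold above day 4 (limma, adjusted p = 0.000135). The C2H2 zinc finger protein AT5G03510 was late too, with 31.6 and 47.0 at day 4, 275 and 217 at day 6 and 172 and 182 at day 8 and a log2 change of 2.20 ± 0.23 (SE, adjusted p = 0.000108) for day 8 against day 4. The VQ motif protein AT5G08480 had 76.3 and 96.0 at day 4 and 335 and 271 at day 6. AT5G02420, which belongs to a family of inhibitors of cyclin-dependent kinases, had no array below 20: 87.7 and 81.9 at day 0, 63.7 and 56.8 at day 2, 156 and 190.4 at day 4, 328 and 306 at day 6 and 209.8 and 217 at day 8. Its log2 change for day 4 against day 2 was 1.52 ± 0.11 (SE, adjusted p = 1.42e-06).

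Metabolic enzymes, folding factors and transporters of other kinds numbered 6, and all 6 were called higher on day 4 than on day 2. Their median level was 80.4% of day 6 on day 4, the highest of the role groups, 63.2% on day 8 and 43.7% on day 10. The amino acid transporter AT1G47670 had 2.14 and 1.72 at day 0, 3.23 and 1.24 at day 2 and 158 and 171 at day 4. It then had 143 and 198 at day 6, 66.2 and 94.0 at day 8 and 46.4 and 39.6 at day 10. Its day 4 arrays lay between its day 6 arrays, and it was at least 8.22-fold higher on day 4 than on day 2 (limma, adjusted p = 2.97e-07). The SecY translocation protein AT1G78720 had 136 and 149 at day 4, 158 and 155 at day 6 and 96.0 and 98.4 at day 8. The glutathione transferase AT5G45020 had 71.8 and 88.1 at day 2, 328 and 369 at day 4, 408 and 393 at day 6 and 266 and 219.8 at day 8, and its log2 change for day 8 against day 4 was -0.53 ± 0.12 (SE, adjusted p = 0.0114). This call of a fall was lost when replicate 2 was left out on day 4 (adjusted p = 0.0844) or on day 8 (0.102). The FKBP-type peptidyl-prolyl isomerase AT1G73655 had 56.0 and 48.7 at day 0, 37.1 and 37.7 at day 2 and 113 and 118 at day 4. Later it had 154 and 157 at day 6, 93.9 and 123 at day 8 and 63.3 and 71.1 at day 10. AT3G24840, a Sec14-like lipid transfer protein, had 18.9 and 22.9 at day 0, 19.996 and 23.9 at day 2 and 32.3 and 42.4 at day 4. It then had 70.0 and 64.5 at day 6, 44.5 and 41.9 at day 8 and 36.2 and 29.1 at day 10. Both lie just inside a limit of the rule. AT1G76020, of the thioredoxin superfamily, was the slow one of the 6, at 32.7% of day 6 on day 4.

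**Figure D4:**
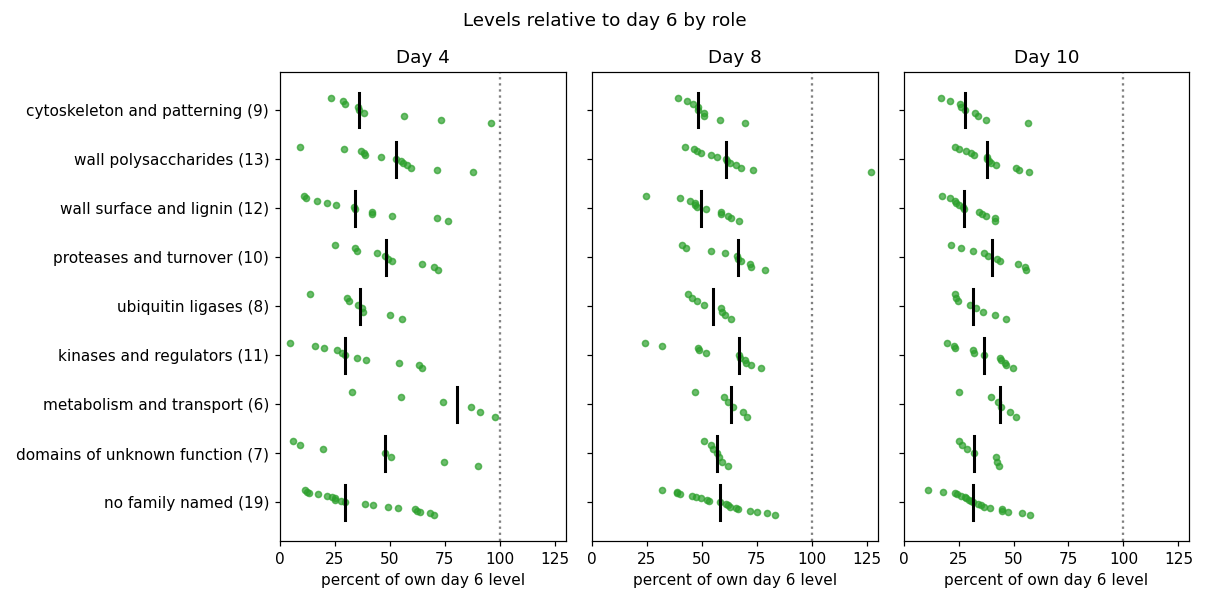
Level on days 4, 8 and 10 as a percentage of the gene's own day 6 level, for each of the 95 genes by role; points are genes, black bars are medians, group sizes are in parentheses and the dotted line is the day 6 level. Day 4 shares run from 4.43% to 97.6% and spread within every role, with 10 genes at an upper bound; the limit for day 10 caps the day 10 shares, whose highest is 57.4%, and 1 wall polysaccharide gene is at 127% on day 8.

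Proteins named here only by a conserved domain numbered 7, of which 6 were called higher on day 4 than on day 2. DUF620 was present in AT5G06610 and AT1G79420. AT5G06610 had 10.0 and 10.5 at day 0, 80.3 and 70.2 at day 2, 223 and 275 at day 4 and 501 and 478 at day 6. It was at least 3.75-fold higher on day 2 than on day 0 (limma, adjusted p = 1.02e-08), among the 3 largest called rises of that step, whereas AT1G79420 was below 20 on both days. The DUF716 protein AT5G19870 and the DUF677 protein AT3G49070 were late. AT5G19870 had 23.1 and 25.2 at day 4, 529.7 and 327 at day 6 and 209 and 249.9 at day 8, and AT3G49070 had 21.4 and 15.4, 239.5 and 216 and 141 and 129.9 on the same days. The day 4 level was 5.80% of day 6 for AT5G19870 and at most 9.09% for AT3G49070, and the log2 change of AT5G19870 for day 8 against day 4 was 3.24 ± 0.22 (SE, adjusted p = 4.63e-06). The DUF547 protein AT5G60720 stood on day 4 at 19.4% of day 6.

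The DUF3527 protein AT1G63520 was early, with 16.3 and 15.3 at day 2, 274 and 310.4 at day 4, 344 and 305 at day 6 and 216 and 187 at day 8. It was among the 7 genes called lower on day 8 than on day 4, at -0.54 ± 0.15 (SE, adjusted p = 0.0245). The DUF288 protein AT3G57420 was another, at -0.40 ± 0.12 (SE, adjusted p = 0.0374). The call of AT1G63520 was lost with each array of day 4, and with the day 8 replicate 2, left out in turn (adjusted p between 0.056 and 0.163), and that of AT3G57420 without any 1 array of days 4 or 8 (between 0.0699 and 0.191). AT3G57420 had 71.7 and 70.1 at day 0, 97.4 and 112 at day 2 and 232 and 248 at day 4. Later it had 343 and 299.6 at day 6, 173 and 192 at day 8 and 150.1 and 122 at day 10. No array was below 20, and it lay just inside the limit for day 2.

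For 19 genes no family is named here. Of these 18 were called higher on day 4 than on day 2 and 10 higher on day 8 than on day 4. AT1G47410 had 5.43 and 4.96 at day 0, 9.72 and 6.51 at day 2 and 178 and 304 at day 4. It reached 987 and 860.2 at day 6, 443 and 472 at day 8 and 274 and 214 at day 10. AT1G10800 had 9.09 and 11.9 at day 0, 2.15 and 6.07 at day 2 and 117 and 190.1 at day 4. It reached 729.8 and 655 at day 6, 456 and 450.2 at day 8 and 233 and 192 at day 10. Both were at background on days 0 and 2, and day 6 was at least 46.1-fold above day 2 for AT1G47410 and at least 34.6-fold for AT1G10800. AT1G58070 had the lowest share on day 10. It had 14.8 and 8.97 at day 0, 2.15 and 1.69 at day 2 and 49.0 and 47.3 at day 4. It then had 444 and 399.8 at day 6, 143 and 185 at day 8 and 65.6 and 34.7 at day 10. Day 4 was 11.4% of day 6 and day 10 was 11.3%, so its time course was narrow on both sides.

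AT4G14200 lost most of its signal early. It had 10.5 and 14.9 at day 0, 17.1 and 18.9 at day 2 and 44.3 and 57.8 at day 4. It then had 73.1 and 92.4 at day 6, 30.3 and 22.9 at day 8 and 19.5 and 14.3 at day 10. Its log2 change for day 8 against day 4 was -0.94 ± 0.26 (SE, adjusted p = 0.023), and AT4G33666, with 48.0 and 64.1 at day 4, 93.0 and 70.8 at day 6 and 38.4 and 25.8 at day 8, followed with -0.82 ± 0.26 (SE, adjusted p = 0.0426). Both calls were lost without replicate 2 of day 4 (adjusted p of 0.152 for AT4G14200 and 0.24 for AT4G33666) and without replicate 2 of day 8 (0.155 and 0.276). The call of AT4G33666 was also lost when the day 4 replicate 1 was left out, and with each array of days 6 and 10 left out in turn. AT5G40970 and AT5G45320 had the highest day 8 shares below 100%, at 83.4% and 79.6%. AT5G40970 had 27.1 and 24.7 at day 0, 29.9 and 35.9 at day 2 and 69.4 and 67.1 at day 4. It then had 102 and 113 at day 6, 78.9 and 102 at day 8 and 58.1 and 57.6 at day 10. AT5G45320 had 15.0 and 12.0 at day 0, 11.9 and 10.2 at day 2 and 22.8 and 21.8 at day 4. It then had 181 and 161 at day 6, 133 and 139 at day 8 and 94.3 and 61.7 at day 10. Their day 4 shares were far apart: day 4 was 63.6% of day 6 for AT5G40970 and 13.1% for AT5G45320.

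AT1G28100 lay just inside the limit for day 10. It had 19.6 and 11.9 at day 0, 31.1 and 29.6 at day 2 and 212 and 199.9 at day 4. It then had 528 and 453 at day 6, 365 and 371 at day 8 and 272 and 289.9 at day 10. AT1G68500 was dim on every day but days 6 and 8. It had 9.28 and 9.22 at day 0, 4.69 and 4.53 at day 2 and 7.73 and 10.5 at day 4. It then had 64.2 and 70.4 at day 6, 30.5 and 33.2 at day 8 and 16.6 and 13.8 at day 10. Day 8 was at least 1.59-fold above day 4 (limma, adjusted p = 0.000582). AT5G06930 was the other gene called lower on day 10 than on day 8, with 70.6 and 60.4 at day 10 and 158 and 134 at day 8 and a log2 change of -1.16 ± 0.14 (SE, adjusted p = 0.045). That call too was lost without any 1 array of days 6, 8 or 10, with adjusted p between 0.0522 and 0.283.

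Pairs of the same family did not always keep the same time. Among the DUF662 pair day 4 was 23.3% of day 6 for AT3G52900 and 35.4% for AT2G27740. The day 4 arrays of each of these genes lay further apart than that, so the pair is not separated by its shares. Day 4 was 96.0% and 29.4% of day 6 for the ROP GTPase activating proteins AT3G11490 and AT1G08340. The shares were 64.4% and at most 20.1% for the armadillo repeat proteins AT5G14510 and AT1G59850, and 70.1% and 35.1% for the aspartic proteases AT2G03200 and AT2G39710. The peroxidases AT5G15180 and AT1G71695 stood at 21.3% and at most 11.1%. These are descriptions, and no difference between members was tested.

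The limits of the rule cut through a continuous range. For day 6 over day 0 the smallest log2 differences inside were 1.52 for AT1G70550 and 1.58 for AT1G73655, and the largest outside were 1.48 for AT3G15220 and 1.46 for AT2G32150. For day 6 over day 2 they were 1.62 for AT3G57420 and 1.62 for AT3G24840 inside, and 1.49 for AT1G07380 and 1.43 for AT5G49900 outside. For day 6 over day 4 they were 0.03 for AT1G47670 and 0.06 for AT3G11490 inside, and -0.08 for AT5G23400 and -0.12 for AT5G26330 outside. For day 6 over day 10 they were 0.80 for AT1G28100 and 0.81 for AT3G14920 inside, and 0.79 for AT2G24240 and 0.78 for AT3G15450 outside. The lower day 6 signal was 60.05 for AT1G05170 and 64.2 for AT1G68500 inside, and 59.3 for AT5G48290 and 58.7 for AT1G51090 outside. The limit for day 10 removed the most: 74 probe sets failed it alone, against 13, 15, 17 and 7 for the limits on days 0, 2 and 4 and on the signal.

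The 2 arrays of a day were not equal for the wave. On day 4, replicate 2 was above replicate 1 in 77 of the 90 genes with an array at 20 or more, which is 85.6%, with a median log2 difference of 0.33. For the other probe sets tested it was 48.1%, with a median of -0.01. On day 6 it was 18 of 95, or 18.9%, against 52.4% for the others. On day 10 it was 27.8% against 50.8%, and on day 8 58.9% against 48.2%. The genes of the wave thus differed together between arrays of 1 day. Without replicate 2 of day 6 the rule took 118 genes, of which 93 were among the 95.

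**Figure D5:**
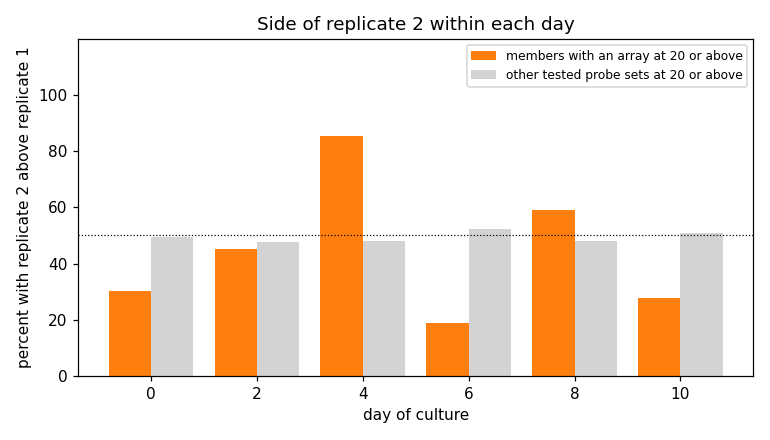
Percentage of probe sets whose replicate 2 signal lies above replicate 1 on each day, for genes of the wave (orange) and for the other tested probe sets (grey), each with an array at 20 or above; the dotted line is 50%. The orange bars reach 85.6% on day 4 and 18.9% on day 6, while the grey bars stay near the dotted line on all days.

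The wave was set beside genes with a known place in xylem. Of 17 markers of tracheary elements, the annotation used here names 5. The xylan genes IRX15, IRX15-L and IRX10 met the limits of the rule and carry symbols, which is why they are not among the 95. IRX15-L had 59.2 and 95.7 at day 4, 417 and 343 at day 6, and 163 and 180.4 at day 8. The carboxypeptidase SCPL48 was highest on day 6 as well but had 619.9 and 558 already on day 0. The protease PASPA3 was ahead of the wave, with 552 and 538 at day 2, 1141 and 1258 at day 4 and 509 and 466 at day 6. Of the markers of dividing cells 2 of 5 are named, and both were highest on day 0: the kinase AUR1 had 143 and 129 then and 79.5 and 74.5 on day 6. None of the markers of phloem (6), procambium (5), fibres (2), photosynthetic cells (3) or senescing cells (3) is named in that annotation, so other cell types could not be followed by them.

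Among pathway lists, 3 of 21 secondary wall polysaccharide genes, 3 of 19 lignin genes, 4 of 9 vessel death genes, 2 of 12 genes for the cytoskeleton of the patterned wall and 1 of 23 xylem switches are named. The 3 lignin genes HCT, PRX66 and PRX72 were highest on day 6, as were 3 of the 4 vessel death genes, SCPL48, DMP4 and EXI1. PRX66, PRX72, DMP4 and EXI1 are among the loci that the rule left out by name, and all but EXI1 met its limits. They are therefore no independent comparison with the wave. EXI1 was dim, with 52.6 and 36.3 at day 6 and 46.2 and 31.6 at day 8. The microtubule genes KINESIN-13A and VETH1 and the zinc finger gene C3H14 had their highest mean on day 4, but in each the day 4 arrays overlapped those of a later day. KINESIN-13A had 539 and 642 at day 4 and 537 and 544 at day 6. VETH1 had 107 and 139 at day 4, 113 and 111 at day 8 and 122 and 103 at day 10. C3H14 was dim, with 29.99 and 27.2 at day 4 and 28.03 and 27.3 at day 6. Day 6 cultures were at 27 C, and 3 of 12 heat shock genes are named. HSP22 had 14.8 and 12.8 at day 0, 37.8 and 45.8 at day 2 and 36.0 and 27.5 at day 4. It then had 10.4 and 15.8 at day 6, 14.9 and 20.7 at day 8 and 12.7 and 13.4 at day 10. HSP15.7 had 34.4 and 29.8 at day 0, 47.9 and 84.2 at day 2 and 37.8 and 28.1 at day 4. It then had 16.3 and 21.4 at day 6, 16.0 and 30.1 at day 8 and 45.1 and 46.0 at day 10. ROF2 had 54.4 and 51.9 at day 0, 166 and 204 at day 2 and 131 and 143 at day 4. It then had 163 and 148 at day 6, 199.7 and 237 at day 8 and 199 and 234 at day 10. None of the 3 was highest on day 6, and the part of temperature in the wave was not tested.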

How the data were processed

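The deposited table holds 1 signal intensity per probe set and array on a linear scale, made by the authors with MAS5, as the submitters' processing notes have it, with a version not given in the sources used here. The trimmed means of the deposited intensity values lie close together, as they do after scaling to 1 level; a scaling step is not described in the labels. Detection calls were not used here.

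Of 22810 rows, 64 are Affymetrix controls and were not used. The platform annotation gives 1 gene for 13513 probe sets, and all 95 member loci are in RefSeq's TAIR10.1 table, which was used for names and neighbours only. A linear model of the log2 signals was made in R 4.3.3 with limma 3.58.1 (lmFit, eBayes with a variance trend), as 6 day means over 12 arrays, with 6 residual degrees of freedom. To be tested, a probe set had to reach its array's 40th percentile on both arrays of some day; 15103 did and 7643 did not; all 95 members passed, 1 of them through day 6 alone. P-values are 2-sided and were adjusted by Benjamini-Hochberg across the 15103. The median SE of a difference between days was 0.149, and the number of arrays limits the precision. The fit was tested on simulated data. Rule and figures used Python 3.11.15 with pandas 2.3.3, numpy 2.4.6 and matplotlib 3.10.9.

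The members and the gene lists were chosen with earlier results of these data known. Families and roles of loci come from general knowledge of Arabidopsis, not from the files, and were assigned after the values were seen; 76 members have one. Values on all arrays are given for the members with the largest day 6 rise, the highest day 6 signals, the largest and smallest day 8 falls and the largest and smallest day 4 steps, and for those just inside a limit; for each comparison the 3 largest called changes each way are named from signals raised to 20, and further members were named by role after their values were seen. Planned searches of promoters and proteins were not run and no sequence is given, since no sequences were used here. Alternatives were other scalings, filters, floors and variance models, replicate as a block, fits of 4 arrays only, and leaving out each array.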

Additional observations from a re-analysis of the deposited data

How the results depend on the processing

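Under quantile normalization, median scaling and floors of 10 and 40 the rule took 91, 91, 95 and 77 genes in place of 95, and 92 to 118 with 1 array left out, the 118 without replicate 2 of day 6. Calls for day 2 against day 0, 43 in all, came to 20 with signals raised to 20 and to 28 with the 4 arrays of those days alone; in the other settings they stayed within 1.5 times, and with 1 array left out they were 40 to 47. Calls for day 10 against day 8, 2 in all, came to 11 with quantile normalization, 1 with arrays centred on their medians, 0 with no filter, 6 with a 60th percentile filter, 28 with signals raised to 20, 21 with a pseudocount of 8.50, 0 without a variance trend and 35 with the 4 arrays alone, and to 0 to 7 with 1 array left out. For day 8 against day 4, 45 calls became 26 to 48 with 1 array left out, the 26 without replicate 2 of day 8. The other comparisons had 87 to 89 calls (day 4 against day 0), 78 to 86 (day 4 against day 2), 93 to 95 (day 8 against day 0) and 81 to 90 (day 10 against day 0) with 1 array left out, and stayed within 1.5 times in all settings tried. The cause of these shifts was not tested. Of 567 alternatives run on 27 named changes, 537 kept the direction and the side of the threshold, 30 kept the direction and lost the call, and none turned round; the losses were AT4G14200 and AT4G33666 for day 8 against day 4 and AT5G06930 and AT3G14360 for day 10 against day 8. Replicate numbers of different days shared only a number: deviations of same-numbered arrays from their day means correlated with an r of -0.067 to 0.128 (median 0.041). With the replicate number as a block the calls were 42, 88, 85, 93, 45, 3 and 91 for day 2 against day 0, day 4 against days 0 and 2, day 8 against days 0 and 4, and day 10 against days 8 and 0, and AT3G14360 lost its call at an adjusted p of 0.051. Signals near 20 are close to background, so changes among the 43 genes dim on days 0 and 2 are limited by signal over background.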

Other observations

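The limits were also met by 15 probe sets of single genes that carry a symbol. Besides the xylan genes these include TBL34, of a family linked to acetylation of wall polysaccharides, with 343 and 419 at day 4, 938 and 876 at day 6 and 609 and 560.9 at day 8. The autophagy gene ATG8H had 90.5 and 87.0 at day 4 and 162 and 139.7 at day 6. Genes for proteins that work in the chloroplast met the limits too. RCA, which activates Rubisco, had 60.2 and 66.0 at day 4, 239.5 and 254 at day 6 and 144 and 159 at day 8. LHCB4.3, a light-harvesting protein, had 38.6 and 33.9 at day 4 and 145 and 119 at day 6. ACLA-2, of the enzyme that makes cytosolic acetyl-CoA, had 604 and 730.1 at day 4, 1148 and 972 at day 6 and 560.6 and 513 at day 8.

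The 95 genes were spread unevenly over the chromosomes. Chromosome 1 held 36 of them, or 37.9%, against 26.0% of the probe sets named only by an AGI locus, and chromosome 2 held 5, or 5.26%, against 16.5%. Chromosome 3 held 18.9% against 20.5%, chromosome 4 9.47% against 14.4%, and chromosome 5 28.4% against 22.6%. No test was made of this. Besides AT1G72200 and AT1G72220, the transporter AT5G55950 and the RING protein AT5G55970 lie with 1 protein-coding gene between them.

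The limits on days 0, 2, 4, 6 and 10 were met as well by 116 probe sets with no gene listed; they count among the 15103 tested but not among the members. That is 1.33% of the 8730 such probe sets, while 0.897% of the 11933 named only by an AGI locus met them, the loci left out by name included. Their median signal was 18.05 on day 0, 17.57 on day 2, 111 on day 4, 324 on day 6, 181 on day 8 and 118 on day 10. Their median level relative to day 6 was 37.7% on day 4, 56.8% on day 8 and 33.1% on day 10, and the members stood at 38.5%, 58.1% and 34.0%. They are unnamed here, not without a gene, and are not among the 95 genes described.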
